A study of Mus musculus with 7 samples.

Results

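The comparison was between macrophages that had been kept with MDP and macrophages that had been kept with Pam3CSK4, both given Pam3CSK4 afterwards. It used 2 of the 7 arrays of the study, all from mouse macrophages grown from bone marrow, and every gene with a probe set of its own, 18193 genes in all. Cultures had 24 h without ligand, with MDP or with Pam3CSK4, and then 3 h without ligand, with MDP or with Pam3CSK4. As labelled, MDP was used at 10 mg/ml and Pam3CSK4 at 1 mg/ml, for pretreatment and stimulation alike. The unit of these doses is uncertain and could not be checked. Both cultures compared had Pam3CSK4 for the last 3 h, so they differed by the ligand of the first 24 h. Of the other 5 cultures, 3 had no ligand for 24 h and then none (unstimulated), MDP or Pam3CSK4 (naive), and the last pair had MDP after pretreatment with MDP or with Pam3CSK4. The labels give no strain, genotype, age or sex, and every pretreated culture was given a ligand again. Each condition had 1 array (n = 1), so no difference has a replicate check, no p-value is given, and the precision is limited by the number of arrays.

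Pam3CSK4 is a synthetic lipopeptide built like the lipid end of bacterial lipoproteins. It is bound at the cell surface by Toll-like receptor 2 together with Toll-like receptor 1, which signal through Myd88 to NF-kB and MAP kinases. MDP, muramyl dipeptide, is a fragment of the bacterial cell wall that is sensed in the cytosol through Nod2 and its kinase Ripk2. Macrophages that have met a Toll-like receptor ligand are known to answer a second dose with less of some inflammatory mRNAs and as much or more of others, a state called tolerance. The levels of Nod2 and Ripk2 themselves are not analysed here.

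Values are on the log2 scale after RMA, a normalization that brings the arrays to a common distribution. A difference is the log2 value after MDP pretreatment minus that after Pam3CSK4 pretreatment, and a difference of 1 is 2-fold. Array medians lay between 5.48 and 5.55. The 10 macrophage markers were above the array median on both arrays, and the log2 of their summed linear values was 17.1 after MDP and 17.2 after Pam3CSK4 pretreatment. The same sum over 12 neutrophil markers was 13.2 and 13.7, over 9 T and NK cell markers 9.98 and 10.1, over 7 dendritic cell markers 9.24 and 9.22, and over 10 stromal markers 8.63 and 9.17. The 7 B cell markers had sums of 12.87 and 12.97 and the 6 mast and erythroid markers to 7.49 and 7.51. Of the stromal markers 7, of the mast and erythroid markers 4, of the T and NK markers 4 and of the dendritic cell markers 3 had values below the median on both arrays. The 18S ribosomal RNA control probe sets were 1.70 above the unstimulated array on the array with Pam3CSK4 given both times, against 0.28 to 0.48 on the other 5 arrays, and their part in the results was not tested. With the array of Pam3CSK4 before MDP in its place, a substitution chosen after the values were seen, 429 and 233 genes were past 2-fold in place of 438 and 244. Those arrays of Pam3CSK4-pretreated cells differed 2-fold in 1 gene, Il6, so near-equal counts were largely fixed in advance. The array put in place also had MDP as its second ligand, so the cultures then differed in both ligands.

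A kappaB-like sequence, the kind of site bound by NF-kB, was in a larger share of the promoters of genes that stood higher after MDP pretreatment than of all promoters, and in a larger share still for genes raised by Pam3CSK4 in naive cells. The letters GGANTTTCC were searched on both strands in RefSeq promoters of 300 bases on GRCm38.p6, from 250 before to 50 after each start site. They were present in 3.24% of promoters of the genes 2-fold higher after MDP pretreatment (15 of 463). For the genes 2-fold higher after Pam3CSK4 pretreatment the share was 1.20% (3 of 251). It was 1.25% of all 32851 promoters and 1.35% of the 18109 promoters of measured genes. For the genes raised 3-fold by Pam3CSK4 in naive cells, which include 143 of the 438, the share was 6.35% (16 of 252). Of the 438 and 244 genes, 355 and 187 had a promoter in the RefSeq table. The 4 sequences shown are the 150 bases before the start site of the 4 named genes with the largest differences among those with a match in that window. Capitals mark the match, and all 4 windows lie on the plus strand. Maff has 3 start sites in the RefSeq table, and the window shown is before the most downstream of them, the 1 with a match. They are chr5:67607733-67607882 for Shisa3, chr5:90891095-90891244 for Cxcl1, chr15:79348252-79348401 for Maff and chr5:30012964-30013113 for Il6.
Shisa3: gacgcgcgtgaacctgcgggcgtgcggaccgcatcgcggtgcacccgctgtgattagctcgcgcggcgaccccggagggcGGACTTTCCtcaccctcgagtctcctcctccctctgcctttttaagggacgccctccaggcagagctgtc
Cxcl1: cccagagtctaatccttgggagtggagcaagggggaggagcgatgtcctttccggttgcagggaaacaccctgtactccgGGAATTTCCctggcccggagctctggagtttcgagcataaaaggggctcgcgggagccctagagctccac
Maff: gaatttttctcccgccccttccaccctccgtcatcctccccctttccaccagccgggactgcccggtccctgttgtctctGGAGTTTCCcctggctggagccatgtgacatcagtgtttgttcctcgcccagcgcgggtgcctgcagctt
Il6: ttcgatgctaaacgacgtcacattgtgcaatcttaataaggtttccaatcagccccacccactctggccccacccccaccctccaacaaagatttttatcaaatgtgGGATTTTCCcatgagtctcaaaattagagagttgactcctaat
The match began 70 bases upstream of the start site in Shisa3, Cxcl1 and Maff and 43 bases upstream in Il6. Acod1, which stood at the same level on both arrays (difference 0.02), also had a match (85 bases upstream). So did Dusp6, which was 4.27-fold lower after MDP pretreatment, farther upstream. Other motifs were searched in the same way. The AP-1-like TGANTCA was in 9.72% and 7.57% of the promoters of genes higher after MDP and after Pam3CSK4 pretreatment. It was in 7.81% of all promoters and 6.38% of those of measured genes. The C/EBP-like TTGCNNAA was in 10.8% and 12.7%, against 10.8% of all and 9.39% for measured genes. The GAS-like TTCNNNGAA was in 8.42% and 7.97%, against 8.30% and 7.21%. The ISRE-like GAAANNGAA was in 5.62% and 6.37%, against 8.56% and 7.37%. The ISRE-like, GAS-like and kappaB-like letters share short runs, so their matches can overlap. Such a match is a string of letters and not a measured site.

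Pretreatment left a large difference between cells given the same Pam3CSK4. Of the 18193 genes 438 (2.41%) were at least 2-fold higher after MDP pretreatment, and 244 (1.34%) at least 2-fold higher after Pam3CSK4 pretreatment. At 4-fold there were 94 and 37 genes. The median difference over all genes was -0.03 and the robust standard deviation over genes was 0.211, so most genes lay close to equality. The largest difference of either sign was that of Arg1, and the genes next to it belonged to distinct groups that are described in turn. Values below the median of their array cannot be told from background. Where 1 of the 2 values was that low, the difference is counted from the median and written as a bound, and by that count 415 and 230 genes were past 2-fold. Where a gene had several probe sets above the median, 112 of 206 genes higher after MDP pretreatment and 46 of 99 on the other side had all of them past 2-fold.

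**Figure D1:**
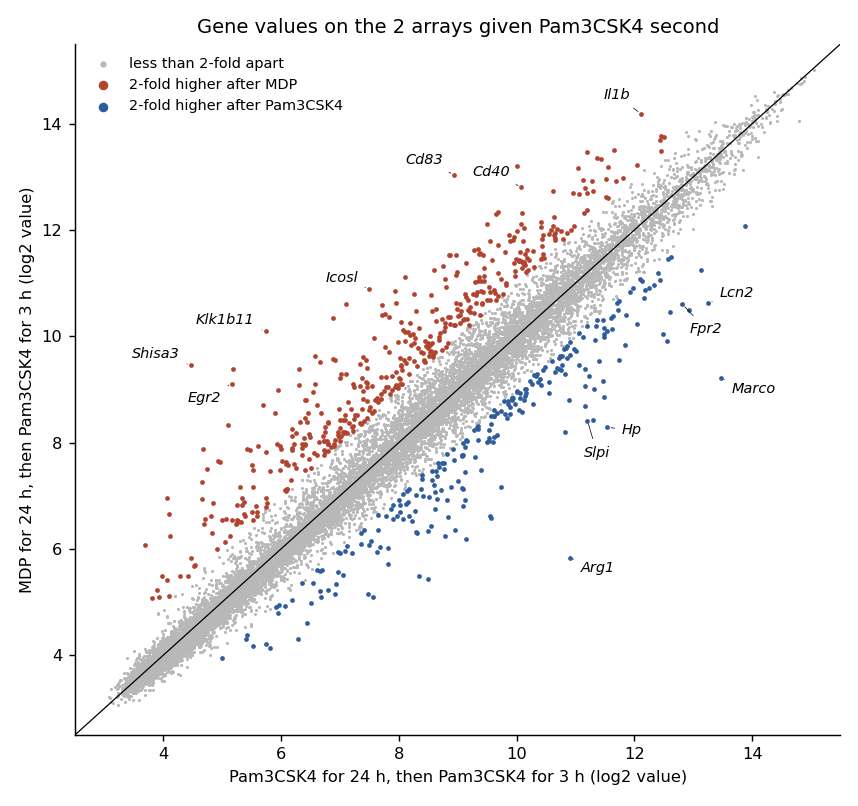
Log2 value of each of 18193 genes on the array of MDP before Pam3CSK4 (vertical) and of Pam3CSK4 before Pam3CSK4 (horizontal), 1 array each. Red points mark the 438 genes 2-fold higher after MDP pretreatment and blue points the 244 genes 2-fold higher after Pam3CSK4 pretreatment, with Arg1 farthest from the line of equality, at 5.83 and 10.90.

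The difference lay along the naive response to Pam3CSK4, which was measured on 2 other arrays. In naive cells 232 genes (1.28%) were at least 3-fold over unstimulated cells after Pam3CSK4, and 110 (0.605%) at least 3-fold under. Of the 232 raised genes 143 (61.6%) were 2-fold higher after MDP than after Pam3CSK4 pretreatment, against 2.41% of all genes, and 9 (3.88%) were 2-fold higher after Pam3CSK4 pretreatment. The median difference of the 232 was 1.30. Of the 110 lowered genes 49 (44.5%) were 2-fold higher after Pam3CSK4 pretreatment, against 1.34% of all genes, and 2 were 2-fold higher after MDP pretreatment, with a median of -0.95. MDP itself raised 40 genes (0.22%) at least 3-fold in naive cells. Of these 26 (65.0%) were higher after MDP pretreatment and 0 after Pam3CSK4 pretreatment, with a median of 1.40.

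The levels show on which of the arrays these genes departed from the naive response. Over the unstimulated array, the 232 raised genes had a median of 2.28 in naive cells given Pam3CSK4, 2.54 in MDP-pretreated cells given Pam3CSK4 and 1.28 in Pam3CSK4-pretreated cells given Pam3CSK4. With MDP second, the median was 0.28 after MDP and 1.40 after Pam3CSK4 pretreatment. The 110 lowered genes had medians of -1.95 in naive cells, -1.93 after MDP and -1.03 after Pam3CSK4 pretreatment. MDP-pretreated cells given Pam3CSK4 were thus close to naive cells given Pam3CSK4 in both sets, and 58 genes in all differed 2-fold between those arrays, against 856 between naive and Pam3CSK4-pretreated cells.

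**Figure D2:**
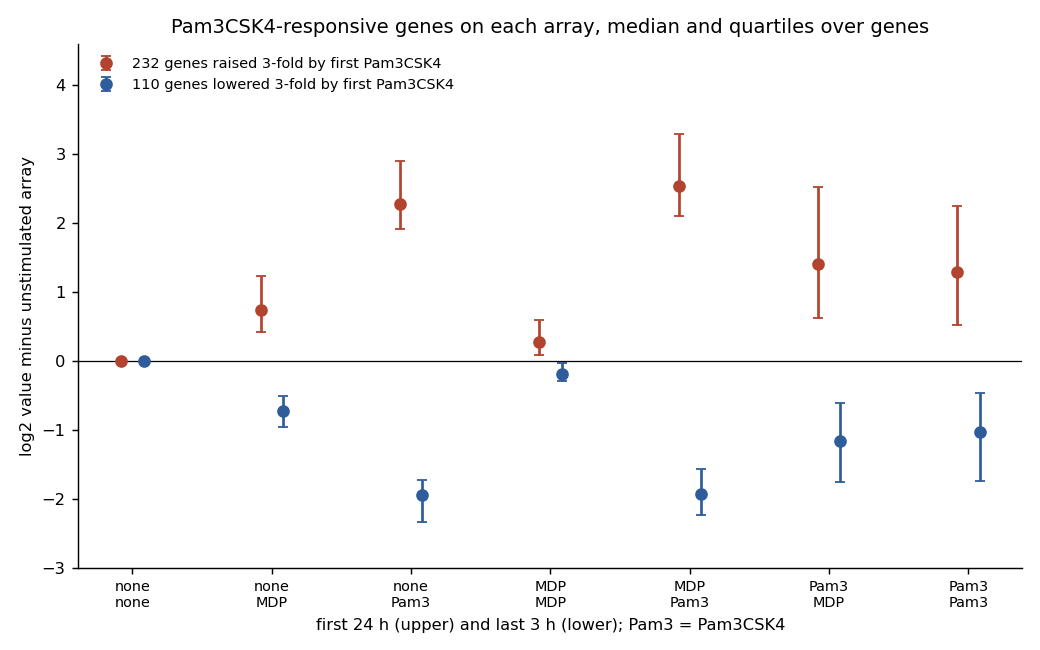
Median (point) and quartiles over genes (bars) of the log2 value minus the unstimulated array, for the 232 genes raised and the 110 genes lowered 3-fold by Pam3CSK4 in naive cells, on each of the 7 arrays. With Pam3CSK4 second, the raised genes stood at 2.54 after MDP and at 1.28 after Pam3CSK4 pretreatment, and the lowered genes at -1.93 and -1.03.

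The naive response did not cover most of the genes apart. Of the 438 genes higher after MDP pretreatment 295 had not been raised 3-fold by a first Pam3CSK4, and of the 244 genes on the other side 195 had not been lowered 3-fold. The 295 genes had a median of 0.34 over unstimulated in MDP-pretreated and -1.10 in Pam3CSK4-pretreated cells given Pam3CSK4. The 195 genes had medians of -0.07 and 1.25. In both of these sets it was therefore the Pam3CSK4-pretreated array that stood away from the unstimulated level. The choice of sets largely fixed this, since they lacked a 3-fold naive response on their side. MDP-pretreated cells given Pam3CSK4 differed 2-fold from naive cells given it in 58 genes. In the 143 raised genes the medians were 2.62 and 0.71, so that the MDP-pretreated array was the one far above the unstimulated level. That set was chosen for its rise in naive cells.

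Surface molecules by which macrophages engage T cells were among the genes with the largest differences. Cd83, which stabilizes antigen-presenting molecules at the surface, had values of 10.19 unstimulated, 11.80 naive with MDP, 13.16 naive with Pam3CSK4, 10.32 with MDP before MDP, 13.04 with MDP before Pam3CSK4, 8.80 with Pam3CSK4 before MDP and 8.94 with Pam3CSK4 before Pam3CSK4. It reached its naive level after MDP pretreatment and lay below the unstimulated level after Pam3CSK4 pretreatment, a difference of 4.10 or 17.1-fold. Cd40, the receptor for T cell help, was at 7.45 unstimulated, 10.17 naive with MDP, 12.71 naive with Pam3CSK4, 8.34 with MDP before MDP, 12.80 with MDP before Pam3CSK4, 10.38 with Pam3CSK4 before MDP and 10.08 with Pam3CSK4 before Pam3CSK4. Unlike Cd83, it stayed above the unstimulated level on the Pam3CSK4-pretreated arrays. The difference was 6.62-fold. Icosl, a ligand for the T cell costimulator Icos, was at 10.89 after MDP and 7.49 after Pam3CSK4 pretreatment, against 7.26 unstimulated. It differed 10.6-fold at its brightest probe set and by 1.71 with the mean of its probe sets. Icam1, an adhesion molecule for leukocyte integrins, differed 3.58-fold, and Vcam1, another adhesion molecule, 8.53-fold.

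Of the 27 measured genes of costimulation and antigen presentation 6 were 2-fold higher after MDP pretreatment and 1 after Pam3CSK4 pretreatment, against 2.41% and 1.34% of all genes, with a median of 0.26. The median was 0.57 without less specific probe sets and 0.14 among members above the 75th percentile of the higher array. The other 2 on the first side were H2-Eb1, a class II chain (1.12), and Tnfrsf9, a costimulatory receptor (1.04). The class I chains H2-K1, at 14.55 and 14.54, and H2-D1, at 14.43 and 14.40, differed little. Cd200r1, an inhibitory receptor of myeloid cells, was the 1 gene on the other side, at 9.63 and 10.73, against 10.79 unstimulated. Cd274, the ligand of the inhibitory receptor Pd-1, was at 11.23 and 12.08, short of 2-fold.

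**Figure D3:**
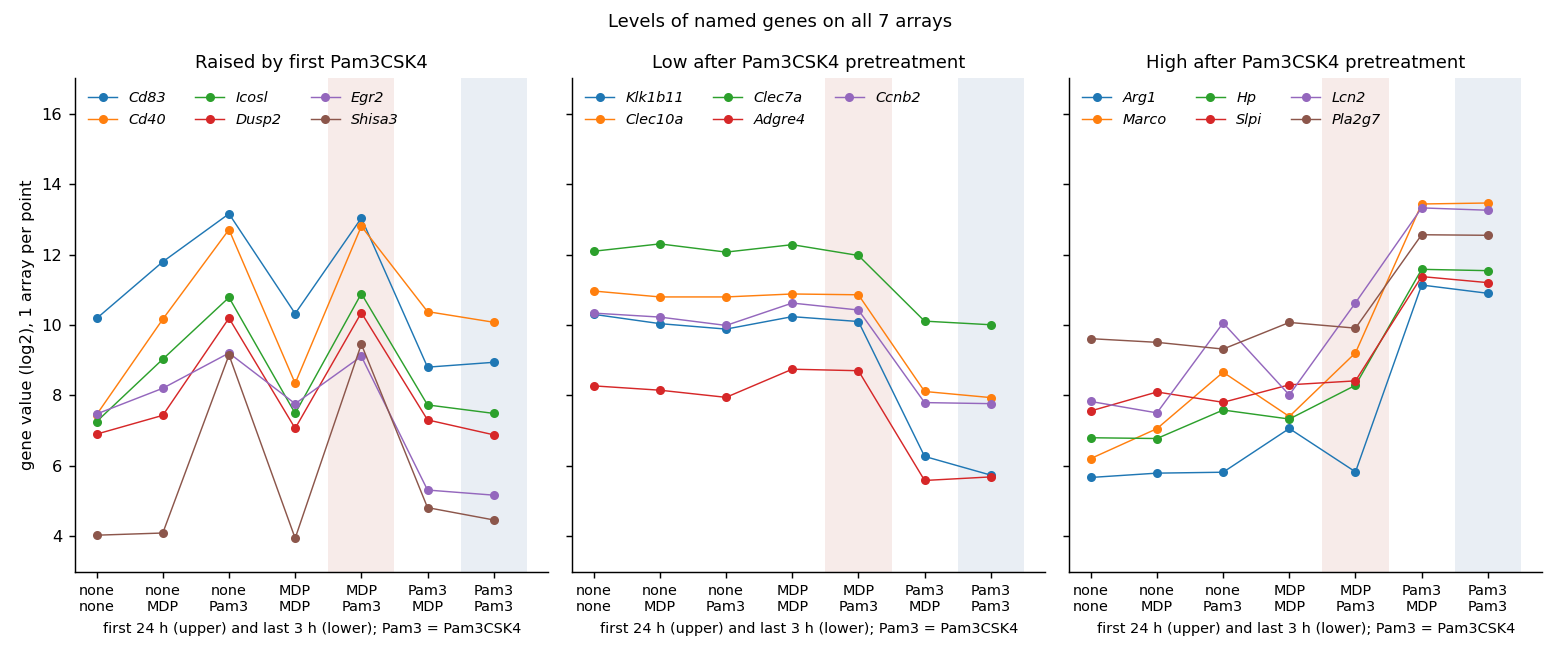
Log2 values of 17 named genes on the 7 arrays, 1 array per point, in 3 groups. Lines join the points of a gene, and shading marks the arrays compared, MDP before Pam3CSK4 in red and Pam3CSK4 before Pam3CSK4 in blue. Genes of the left panel peaked wherever Pam3CSK4 met naive or MDP-pretreated cells, as Cd83 did at 13.16 and 13.04. Those of the middle and right panels stood apart on both Pam3CSK4-pretreated arrays, whichever ligand came second.

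Cytokine mRNAs stood higher after MDP pretreatment. Of 24 measured genes 10 were 2-fold higher after MDP pretreatment and 0 after Pam3CSK4 pretreatment, against 2.41% and 1.34% of all genes. The list median was 0.45. Over members above the median on the brighter of the 2 arrays it was 1.17. That filter draws on the values compared, so it cannot show a larger shift. Il1a, the alpha form of the fever cytokine interleukin 1, was at 4.79 unstimulated, 7.38 naive with MDP, 12.04 naive with Pam3CSK4, 5.92 with MDP before MDP, 12.32 with MDP before Pam3CSK4, 10.41 with Pam3CSK4 before MDP and 10.09 with Pam3CSK4 before Pam3CSK4. Both arrays compared were thus far above the unstimulated one, and the MDP-pretreated one was 4.67-fold the higher. Il1b, the beta form, showed the same order, at 6.67, 9.73, 14.17, 8.83, 14.19, 12.45 and 12.11 on the same arrays. It differed 4.22-fold.

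Il6, the inducer of the hepatic acute phase response, was at 3.41 unstimulated, 4.01 naive with MDP, 9.84 naive with Pam3CSK4, 4.31 with MDP before MDP, 10.79 with MDP before Pam3CSK4, 10.18 with Pam3CSK4 before MDP and 9.12 with Pam3CSK4 before Pam3CSK4. The difference was 3.20-fold. In the Pam3CSK4-pretreated cells the value was lower with Pam3CSK4 than with MDP as the second ligand. Tnf, the early inflammatory cytokine, was at 12.92 after MDP and 11.28 after Pam3CSK4 pretreatment, with 9.32 unstimulated, and differed 3.11-fold. Il10, which restrains macrophage activation, differed 3.71-fold, at 10.51 and 8.62, and so stood on the same side as the inflammatory cytokines. Il12b, the shared subunit of interleukins 12 and 23, was at 6.95 after MDP pretreatment and below the array median after Pam3CSK4 pretreatment, at least 2.67-fold apart. Csf1, the macrophage growth factor, differed 4.55-fold, and Tnfsf9, a ligand for activated T cells, 4.93-fold. Csf2, another myeloid growth factor, was at 7.58 after MDP pretreatment and just under the array median, at 5.51, after Pam3CSK4 pretreatment, and Il15, which sustains NK and memory T cells, was at 11.55 and 10.14. Ifnb1, the interferon beta gene, was at 6.15 and 6.58 and had not passed 2-fold.

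Chemokines were divided. Of 24 measured genes 3 were 2-fold higher after MDP pretreatment and 2 after Pam3CSK4 pretreatment, against 2.41% and 1.34% of all genes, with a median of 0.34. Cxcl1, which draws neutrophils, was at 7.20 unstimulated, 7.57 naive with MDP, 11.51 naive with Pam3CSK4, 7.10 with MDP before MDP, 12.11 with MDP before Pam3CSK4, 9.81 with Pam3CSK4 before MDP and 9.49 with Pam3CSK4 before Pam3CSK4. It differed 6.14-fold. Ccl22, which draws regulatory and helper T cells, differed 5.31-fold, and Cxcl11, a ligand of Cxcr3, 2.48-fold at its brightest probe set and by 0.84 with the mean of its probe sets. On the other side, Cxcl5, also a neutrophil chemokine, was at 7.48 after Pam3CSK4 pretreatment and below the array median after MDP pretreatment, at least 3.96-fold apart. Ccl8, which draws monocytes, was 2.55-fold higher after Pam3CSK4 pretreatment. Chemokines with very high values differed little, among them Ccl3 (13.86 and 13.30), Ccl4 (13.69 and 13.04) and Ccl2 (14.02 and 14.31).

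Genes that act back on the signal stood higher after MDP pretreatment. Of 30 measured NF-kB subunits, feedback genes and other negative regulators 14 were 2-fold higher after MDP pretreatment and 2 after Pam3CSK4 pretreatment, against 2.41% and 1.34% of all genes, with a median of 0.96. Without less specific probe sets 23 members were left, 9 and 1 of them past 2-fold, with a median of 0.73. Dusp2, a phosphatase of MAP kinases, was at 6.90 unstimulated, 10.19 naive with Pam3CSK4, 10.35 with MDP before Pam3CSK4 and 6.88 with Pam3CSK4 before Pam3CSK4. It was at the unstimulated level on the last array, 11.1-fold below the MDP-pretreated one. Socs3, an inhibitor of cytokine receptor signalling, was at 6.63 unstimulated, 9.45 naive with MDP, 13.43 naive with Pam3CSK4, 7.21 with MDP before MDP, 13.47 with MDP before Pam3CSK4, 11.40 with Pam3CSK4 before MDP and 11.19 with Pam3CSK4 before Pam3CSK4. It differed 4.86-fold, and all 3 of its probe sets were past 2-fold. Nfkbie, an inhibitor that holds NF-kB in the cytosol, differed 6.29-fold, and Bcl3, a nuclear relative of it, 4.26-fold. The NF-kB subunits Nfkb2 (1.71), Relb (1.52) and Rel (1.37) were on the same side, as was Tnfaip3 (1.18), a deubiquitinase that ends NF-kB signalling. Nfkbia, the main NF-kB inhibitor, differed by 0.21.

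The exceptions in this group were 2 negative regulators. Irak3, a kinase-like protein that blocks Toll-like receptor signalling, was at 8.50 unstimulated, 8.97 naive with MDP, 10.08 naive with Pam3CSK4, 8.60 with MDP before MDP, 10.39 with MDP before Pam3CSK4, 11.83 with Pam3CSK4 before MDP and 11.86 with Pam3CSK4 before Pam3CSK4. It was highest on both Pam3CSK4-pretreated arrays and 2.77-fold higher there than after MDP with the same second ligand. Both of its probe sets were past 2-fold. Inpp5d, the lipid phosphatase Ship-1, was at 10.20 after MDP and 11.35 after Pam3CSK4 pretreatment, the latter closer to its unstimulated 11.86.

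On the 2 lists drawn up for ligand sensing, the counts were near those over all genes. Of 28 measured Toll-like receptor pathway genes 1 was 2-fold higher after MDP pretreatment and 1 after Pam3CSK4 pretreatment, where 2.41% and 1.34% of all genes were, with a median of 0.11. Tlr2, which binds Pam3CSK4, was at 13.85 and 12.88, against 11.20 unstimulated, a difference of 0.96 that became 1.01 when arrays were centred on their medians. Its partner Tlr1 was at 11.44 and 11.11, and the adaptor Myd88 at 12.21 and 11.96. Traf1, an adaptor of Tnf receptor signalling, was the 1 gene higher after MDP pretreatment (3.57-fold), and Tlr13, a receptor for bacterial ribosomal RNA, the 1 higher after Pam3CSK4 pretreatment (2.39-fold). Tlr13 was at 11.70 unstimulated, 10.35 after MDP and 11.61 after Pam3CSK4 pretreatment. The other list held 21 measured genes of muramyl peptide handling and of inflammasomes. It lacked Nod2, Ripk2 and Card9, so it does not show the sensing of MDP itself. On it Nlrp3, an inflammasome sensor, was 3.12-fold higher after MDP pretreatment. Naip2, a sensor of bacterial secretion systems, was 2.10-fold higher after Pam3CSK4 pretreatment. The list median was 0.09.

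Transcription factors of the early response followed the feedback genes. Of 28 measured immediate early and AP-1 genes 8 were 2-fold higher after MDP pretreatment and 0 after Pam3CSK4 pretreatment, against 2.41% and 1.34% of all genes, with a median of 0.53. Without less specific probe sets 26 members were left, 6 and 0 of them past 2-fold, with a median of 0.41. Egr2, a zinc finger factor, was at 9.11 after MDP pretreatment and below the array median after Pam3CSK4 pretreatment, at least 11.9-fold apart, with 7.47 unstimulated. Jdp2, a Jun partner, differed 9.14-fold at its brightest probe set but by 0.60 when probe sets that may bind other transcripts were left out. Maff, a small Maf factor, differed 4.40-fold, and Ier2, an immediate early gene, 3.73-fold. Fos (0.63) and Egr1 (0.74) had not passed 2-fold, and Jun was at 11.61 and 12.19.

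Among 19 measured interferon regulatory and STAT factors and their kinases and receptors, 3 were 2-fold higher after MDP pretreatment and 0 after Pam3CSK4 pretreatment, against 2.41% and 1.34% of all genes, with a median of 0.29. Stat5a, which carries cytokine receptor signals, was at 8.48 unstimulated, 8.94 naive with MDP, 11.13 naive with Pam3CSK4, 8.39 with MDP before MDP, 11.12 with MDP before Pam3CSK4, 8.06 with Pam3CSK4 before MDP and 8.10 with Pam3CSK4 before Pam3CSK4. It was raised wherever Pam3CSK4 met naive or MDP-pretreated cells, and it differed 8.10-fold with both probe sets past 2-fold. Irf4, a factor of alternative macrophage activation, was at least 2.64-fold higher after MDP pretreatment, and the kinase Jak2 2.24-fold. The factors Irf8 and Irf5 differed by -0.03 and 0.00.

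Other genes raised by Pam3CSK4 were at their naive level after MDP pretreatment. After Pam3CSK4 pretreatment they were at or near the unstimulated level, or below it in Snn and Gng4. Shisa3, a membrane protein that dampens Wnt and Fgf receptors, was at 4.03 unstimulated, 4.09 naive with MDP, 9.15 naive with Pam3CSK4, 3.94 with MDP before MDP, 9.45 with MDP before Pam3CSK4, 4.81 with Pam3CSK4 before MDP and 4.46 with Pam3CSK4 before Pam3CSK4. All but 2 of these values were below the array median, and the difference was at least 15.1-fold. Snn, the gene of the small protein stannin, differed at least 14.5-fold at its brightest probe set and by 2.02 with the mean of its probe sets. Exoc3l4, a gene related to the exocyst, differed 11.3-fold, Rhou, a small GTPase, 8.34-fold, and Gng4, a G protein subunit, 8.20-fold. The Gng4 difference was 0.28 when probe sets that may bind other transcripts were left out.

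Of 16 measured survival and apoptosis genes 5 were 2-fold higher after MDP pretreatment and 1 after Pam3CSK4 pretreatment, against 2.41% and 1.34% of all genes, with a median of 0.37. Gadd45b, a stress sensor, differed 3.52-fold, Pim1, a survival kinase, 2.73-fold, and Bcl2l11, the death protein Bim, 2.67-fold at its brightest probe set and past 2-fold at all 5 probe sets. Gadd45g, of the same family as Gadd45b, was 2.58-fold higher after Pam3CSK4 pretreatment, at 9.83 against 8.46, with 9.76 unstimulated. Genes of oxidative stress and metal handling were divided, with 3 of 16 measured members 2-fold higher after MDP and 2 after Pam3CSK4 pretreatment (all genes, 2.41% and 1.34%) and a median of -0.01. The metallothioneins Mt2 and Mt1, which bind zinc and copper, differed 3.98-fold and 2.40-fold, the second by 0.65 with the mean of its probe sets. Slc39a14, a zinc and iron importer, differed 5.89-fold at its brightest probe set. On the other side Hmox1, which degrades haem, was 3.48-fold and Gclm, which limits glutathione synthesis, 3.42-fold higher after Pam3CSK4 pretreatment.

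A second group of genes was higher after MDP pretreatment without having been raised by Pam3CSK4 in naive cells. Klk1b11, a kallikrein of a family with near-identical members, was at 10.30 unstimulated, 10.04 naive with MDP, 9.88 naive with Pam3CSK4, 10.24 with MDP before MDP, 10.10 with MDP before Pam3CSK4, 6.27 with Pam3CSK4 before MDP and 5.74 with Pam3CSK4 before Pam3CSK4. It was level on 5 arrays and low on both Pam3CSK4-pretreated ones, a difference of 20.5-fold, and which family members its 1 probe set measures is uncertain. The exact fold is uncertain too, since 5.74 lay just above the array median of 5.54. Clec10a, a lectin for galactose-type sugars, was at 10.96, 10.80, 10.80, 10.88, 10.86, 8.11 and 7.94 on the same arrays. It differed 7.56-fold in the same pattern. Adgre4, an adhesion receptor related to Adgre1, differed 8.08-fold, and Clec7a, the beta-glucan receptor Dectin-1, 3.91-fold. Mrc1, the mannose receptor, was at 12.32 and 11.14, against 12.85 unstimulated.

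Of the 23 measured scavenger and pattern recognition receptors 8 were 2-fold higher after MDP pretreatment, or 7 counted from the medians, and 4 were 2-fold higher after Pam3CSK4 pretreatment, against 2.41% and 1.34% of all genes. The list median was 0.47. Olr1, a receptor for oxidized lipoproteins, was raised by both ligands in naive cells, to 9.70 by MDP and 10.83 by Pam3CSK4 from 6.25, and stood at 10.59 after MDP and 7.71 after Pam3CSK4 pretreatment. Hcar2, a receptor for niacin and ketone bodies, differed 6.42-fold. The 4 genes on the other side were Marco, Siglece, Fpr2 and Clec4a2, with Marco the farthest apart.

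Cell cycle genes stood on both sides. Of 25 measured cell cycle genes 8 were 2-fold higher after MDP pretreatment and 2 after Pam3CSK4 pretreatment, against 2.41% and 1.34% of all genes, with a median of 0.00. The 8 included Ccnb2, a mitotic cyclin, at 10.34 unstimulated, 10.22 naive with MDP, 9.99 naive with Pam3CSK4, 10.62 with MDP before MDP, 10.43 with MDP before Pam3CSK4, 7.80 with Pam3CSK4 before MDP and 7.77 with Pam3CSK4 before Pam3CSK4. It was 6.31-fold lower after Pam3CSK4 pretreatment, and a similar pattern was seen in Cdc20, an activator of anaphase (4.13-fold), the mitotic kinase Plk1 (3.17-fold) and the chromosome passenger Birc5 (3.15-fold). The other 4 were the mitotic kinase Aurka (1.57), the proliferation marker Mki67 (1.52) and the cyclins Ccnd2 (1.24) and Ccna2 (1.22). Ccne2, a cyclin of the entry into DNA synthesis, was 3.48-fold higher after Pam3CSK4 pretreatment, and Rrm2, which makes deoxynucleotides, 2.16-fold, or 0.96 on the log2 scale with the mean of its probe sets. Replication helicase genes Mcm2 to Mcm7 lay between -0.54 (Mcm3) and -0.08 (Mcm7). In RNA from a whole culture, fewer cells of a kind and less RNA per cell cannot be told apart.

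Genes higher after Pam3CSK4 pretreatment were led by Arg1, which turns arginine into ornithine. Its values were 5.67 unstimulated, 5.79 naive with MDP, 5.82 naive with Pam3CSK4, 7.06 with MDP before MDP, 5.83 with MDP before Pam3CSK4, 11.13 with Pam3CSK4 before MDP and 10.90 with Pam3CSK4 before Pam3CSK4. It was 33.6-fold higher after Pam3CSK4 pretreatment, and 3 h of Pam3CSK4 alone had left it at the unstimulated level. The other arginase, Arg2, stood on the opposite side, at 8.09 after MDP and 6.38 after Pam3CSK4 pretreatment. Nos2, the inducible nitric oxide synthase that uses the same arginine, was at 7.77 and 6.73, against 5.96 unstimulated. That difference was 2.05-fold and dropped below 2-fold, to 0.86, with 32 added to the linear values.

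Marco, a scavenger receptor that binds bacteria, was at 6.21 unstimulated, 7.06 naive with MDP, 8.66 naive with Pam3CSK4, 7.40 with MDP before MDP, 9.21 with MDP before Pam3CSK4, 13.44 with Pam3CSK4 before MDP and 13.46 with Pam3CSK4 before Pam3CSK4. It was raised by 3 h of Pam3CSK4 and stood 19.1-fold higher after Pam3CSK4 pretreatment than after MDP. Both of its probe sets were past 2-fold. Fpr2, a receptor for formylated and host peptides, was at 12.81 and 10.61 (4.62-fold), and Siglece, an inhibitory receptor for sialic acids, at 9.73 and 7.17 (5.90-fold). Both had higher values on the Pam3CSK4-pretreated pair of arrays than on any of the other 5.

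Antimicrobial and acute phase genes were mostly on this side. Of 27 measured genes 11 were 2-fold higher after Pam3CSK4 pretreatment and 3 after MDP pretreatment, against 1.34% and 2.41% of all genes, with a median of -0.74. Without less specific probe sets 24 members were left, 10 and 3 of them past 2-fold, with a median of -0.57. Lcn2, which withholds iron from bacteria by binding their siderophores, was at 7.83 unstimulated, 7.50 naive with MDP, 10.06 naive with Pam3CSK4, 8.01 with MDP before MDP, 10.63 with MDP before Pam3CSK4, 13.32 with Pam3CSK4 before MDP and 13.26 with Pam3CSK4 before Pam3CSK4. It differed 6.18-fold. Hp, which binds free haemoglobin, was at 6.80, 6.78, 7.59, 7.33, 8.29, 11.58 and 11.54 on the same arrays and differed 9.54-fold. Slpi, a protease inhibitor that also dampens NF-kB signals, differed 6.91-fold, and Cfb, complement factor B, 6.21-fold. Lox, a collagen crosslinking enzyme, was 6.25-fold higher, and Thbs1, a matrix glycoprotein, was at 12.61 against 10.45. The 3 on the other side were Mmp13, a collagenase (3.07-fold), Camp, the cathelicidin peptide (2.53-fold), and Nos2.

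Markers of neutrophils share genes with this list and did not move as one. Of 12 measured neutrophil markers 9 were higher after Pam3CSK4 and 3 after MDP pretreatment, with a median of -0.26. Past 2-fold were 2 after MDP pretreatment, Ltf (1.56) and Camp (1.34), and 1 after Pam3CSK4 pretreatment, against 2.41% and 1.34% of all genes. That 1 was Mmp8, with a difference of -1.02 that was -0.98 when arrays were centred on their medians. S100a8 was at 11.33 and 12.13 and S100a9 at 11.06 and 11.37. Of the stromal markers Dcn, a matrix proteoglycan, was 2.53-fold higher after Pam3CSK4 pretreatment, or 0.65 on the log2 scale with the mean of its probe sets, while Col1a1 and Col3a1 lay under the array median in both. Of the 10 macrophage markers 2 were 2-fold higher after Pam3CSK4 and 0 after MDP pretreatment, against 1.34% and 2.41% of all genes. Mertk, a receptor for dying cells, was at 9.89 unstimulated, 7.60 naive with Pam3CSK4, 8.10 after MDP and 9.62 after Pam3CSK4 pretreatment (2.87-fold). Itgam, an integrin chain, was at 10.45, 10.28, 10.50 and 11.72 on the same arrays (2.34-fold). Mertk was thus near its unstimulated level after Pam3CSK4 pretreatment, while Itgam was above it. The part of other cells in the differences was not tested.

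Several of the other genes with the largest differences on this side have roles in lipid handling or signalling. Pla2g7, which inactivates platelet activating factor, was at 9.91 after MDP and 12.55 after Pam3CSK4 pretreatment, against 9.61 unstimulated. Fabp7, a fatty acid carrier, was at 8.59 unstimulated, 5.86 naive with Pam3CSK4, 6.19 with MDP before Pam3CSK4 and 9.14 with Pam3CSK4 before Pam3CSK4, so that a gene lowered by a first Pam3CSK4 was not low after Pam3CSK4 pretreatment. Ptprm, a receptor phosphatase, differed 7.93-fold, Klra2, a lectin-like receptor of the Ly49 family whose members are alike in sequence, 7.67-fold, and Ppbp, a platelet chemokine precursor, 7.38-fold. Acpp, an acid phosphatase, was at least 7.97-fold higher, and C130050O18Rik at least 7.19-fold. The latter was at 8.81 unstimulated, below the array median after MDP pretreatment and at 8.34 after Pam3CSK4 pretreatment. Lratd2 was 6.05-fold higher.

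Interferon-stimulated genes shared a direction with small differences. All 29 measured members were higher after Pam3CSK4 than after MDP pretreatment, with a median of -0.52. Over all 18193 genes 7195 were higher after MDP pretreatment, so the Pam3CSK4 side held the larger share there too. Of the 29 members 4 were past 2-fold, against 1.34% of all genes. All 29 stayed on that side with the arrays centred on their medians or on housekeeping genes and after cyclic loess, and 27 of 29 with the mean of probe sets. The 4 past 2-fold were Oasl1 (2.72-fold) and Isg20 (2.69-fold), which act on viral RNA, Mx1 (2.11-fold), a dynamin-like antiviral protein, and Stat2 (2.09-fold), a carrier of the interferon signal. Irf7, a factor that amplifies interferon production, was at 10.73 unstimulated, 10.79 naive with MDP, 10.81 naive with Pam3CSK4, 12.46 with MDP before MDP, 12.54 with MDP before Pam3CSK4, 13.35 with Pam3CSK4 before MDP and 13.30 with Pam3CSK4 before Pam3CSK4. It was high on all 4 pretreated arrays and higher on the Pam3CSK4-pretreated pair, with a difference of -0.76. Members with the smallest differences were Irf9 (-0.05) and Trim30a (-0.10). The ISRE-like motif was in 12 of 24 promoters of this list, against 8.56% of all promoters and 7.37% of those of measured genes. Of 10 measured guanylate binding proteins and immunity related GTPases Iigp1 was 2.40-fold higher after Pam3CSK4 pretreatment, and 0 were 2-fold higher after MDP pretreatment, with a median of -0.20.

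Metabolic genes differed in a few members. Of 18 measured prostaglandin and arginine genes 5 were 2-fold higher after MDP pretreatment and 1, Arg1, after Pam3CSK4 pretreatment, against 2.41% and 1.34% of all genes. Ptgs2, the inducible cyclooxygenase, was at 4.50 unstimulated, 4.94 naive with MDP, 10.78 naive with Pam3CSK4, 5.38 with MDP before MDP, 11.24 with MDP before Pam3CSK4, 9.19 with Pam3CSK4 before MDP and 8.59 with Pam3CSK4 before Pam3CSK4. It differed 6.28-fold. Ltc4s, which makes leukotriene C4, differed 3.69-fold, and Odc1, which makes polyamines from ornithine, 3.12-fold. Both were below their unstimulated values of 9.50 and 12.73 on the Pam3CSK4-pretreated array, at 7.21 and 11.54. Of 20 measured sterol and fatty acid genes 3 were 2-fold higher after Pam3CSK4 pretreatment (1.34% of all genes were), the desaturases Scd2 (5.41-fold) and Scd1 (4.61-fold) and the sterol reductase Dhcr7 (2.23-fold), and 0 after MDP pretreatment. Of 18 measured glycolysis and hypoxia genes Egln3, an oxygen sensor, was 2.87-fold higher there, and the list median was -0.30.

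Of 16 measured alternative activation genes 4 were 2-fold higher after MDP pretreatment, or 3 counted from the medians, and Arg1 was again the 1 gene 2-fold higher on the other side (all genes, 2.41% and 1.34%). The next list held 20 measured genes, chemokine and other G protein coupled receptors along with Rgs1, Rgs2, Rgs16 and P2rx7, which are not such receptors. Of these 2 were 2-fold higher after MDP and 1 after Pam3CSK4 pretreatment (all genes, 2.41% and 1.34%). Gpr132, a receptor for oxidized fatty acids and lactate, was 7.28-fold and Ccrl2, an atypical chemerin receptor, 2.53-fold higher after MDP pretreatment. Cnr2, the peripheral cannabinoid receptor, was at 5.71 after MDP and 7.82 after Pam3CSK4 pretreatment, against 9.15 unstimulated. The 14 housekeeping genes had 0 members past 2-fold in either direction.

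**Figure D4:**
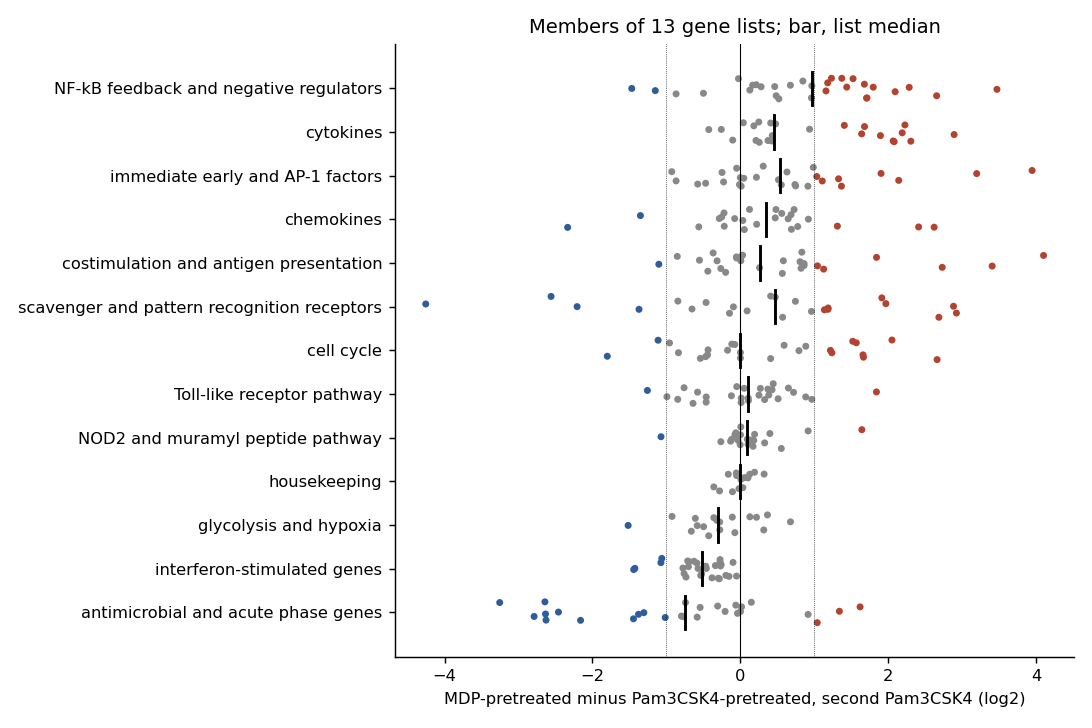
Log2 difference of each measured member of 13 gene lists, MDP-pretreated minus Pam3CSK4-pretreated with Pam3CSK4 second, 1 array each. Black bars mark list medians, dotted lines 2-fold, red points genes 2-fold higher after MDP and blue points genes 2-fold higher after Pam3CSK4 pretreatment. The median was 0.96 for the NF-kB feedback genes, -0.52 for interferon-stimulated genes and -0.74 for antimicrobial and acute phase genes.

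Some genes raised over 3-fold by Pam3CSK4 in naive cells were less than 2-fold apart. Acod1, which makes itaconate, was at 7.85 unstimulated, 12.85 naive with MDP, 13.78 naive with Pam3CSK4, 11.24 with MDP before MDP, 14.01 with MDP before Pam3CSK4, 14.02 with Pam3CSK4 before MDP and 13.99 with Pam3CSK4 before Pam3CSK4. The chemokine Ccl5, which draws T cells and monocytes, was at 13.66 and 13.91 on the arrays compared, and Saa3, an acute phase apolipoprotein, at 14.05 and 14.79, against 6.78 unstimulated. Cxcl10, a chemokine for activated T cells, was at 13.46 and 12.68. The values of Acod1, Ccl5 and Saa3 on the arrays compared lay nearer the upper end of the scale than those of Cxcl10. The highest value on any array was 15.1. Il1b reached a like level after MDP pretreatment, at 14.19 against 12.11, and differed 4.22-fold. Whether the upper end of the scale limited the differences was not tested.

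The same pretreatments could be compared on the pair of arrays given MDP second, which share no array with the pair given Pam3CSK4. With MDP second 374 genes (2.06%) were 2-fold higher after MDP and 348 (1.91%) 2-fold higher after Pam3CSK4 pretreatment. Over all 18193 genes the 2 differences had a Pearson r of 0.371 and a Spearman rho of 0.320. Within the 232 genes raised by a first Pam3CSK4 these were 0.686 and 0.638, within the 110 lowered genes 0.735 and 0.703, and over the other 17851 genes 0.562 and 0.362. Genes are not independent replicates, and these figures describe 4 arrays. The sets differed in where they were centred. The 232 raised genes had a median difference of 1.30 with Pam3CSK4 second and -1.06 with MDP second, where 122 (52.6%) were 2-fold higher after Pam3CSK4 pretreatment and 3 after MDP pretreatment. The 110 lowered genes had medians of -0.95 and 0.89, and the 40 genes raised by a first MDP 1.40 and -1.83.

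Genes past 2-fold on the same side under both second ligands were mostly outside the naive Pam3CSK4 response. There were 151 genes higher after MDP pretreatment in both. They made up 34.5% of the list with Pam3CSK4 second and 40.4% of that with MDP second, against 2.06% and 2.41% of all genes. Of these 3 had been raised 3-fold by a first Pam3CSK4. There were 102 genes higher after Pam3CSK4 pretreatment in both, 41.8% and 29.3% of the lists, against 1.91% and 1.34% of all genes. Of these 102 genes 1 had been lowered and 9 raised 3-fold by a first Pam3CSK4. Put the other way, 148 of the 295 genes higher after MDP pretreatment that a first Pam3CSK4 had not raised (50.2%) were higher with MDP second as well, against 3 of the 143 that it had raised (2.10%). On the Pam3CSK4 side it was 101 of 195 genes not lowered (51.8%) and 1 of 49 lowered (2.04%). The choice of sets by the naive response largely fixed these shares, because the 2 Pam3CSK4-pretreated arrays differed 2-fold in 1 gene. Klk1b11 differed by 3.97 with MDP second, Clec10a by 2.77, Adgre4 by 3.16 and Ccnb2 by 2.83. On the other side, with MDP second, Arg1 differed by -4.07, Marco by -6.03, Hp by -4.25 and Lcn2 by -5.31. With MDP second 10 of the 25 cell cycle genes were 2-fold higher after MDP and 0 after Pam3CSK4 pretreatment, and the interferon-stimulated genes had 14 of 29 2-fold higher after Pam3CSK4 pretreatment with a median of -0.99.

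Genes on opposite sides belonged to the naive response, which follows largely from how close some arrays were. The 2 Pam3CSK4-pretreated arrays differed 2-fold in 1 gene, so the contrasts differ mostly by the 2 MDP-pretreated arrays. Of these, MDP before MDP differed 2-fold from unstimulated in 78 genes. MDP before Pam3CSK4 differed 2-fold from naive cells given Pam3CSK4 in 58 genes. With Pam3CSK4 second 48 genes were 2-fold higher after MDP pretreatment that were 2-fold higher after Pam3CSK4 pretreatment with MDP second. They made up 11.0% and 13.8% of the lists, against 1.91% and 2.41% of all genes. Of these 48 genes, 46 had been raised 3-fold by a first Pam3CSK4. Il6 differed by 1.68 with Pam3CSK4 second and by -4.69 or lower with MDP second, Il1a by 2.22 and -4.49, and Socs3 by 2.28 and -4.18. In each of these genes the array of Pam3CSK4 before MDP stood far above that of MDP before MDP. Another 8 genes were 2-fold higher after Pam3CSK4 pretreatment with Pam3CSK4 second and after MDP pretreatment with MDP second. They made up 3.28% and 2.14% of the lists, against 2.06% and 1.34% of all genes. All 8 had been lowered 3-fold by a first Pam3CSK4. Dusp6, a phosphatase of the kinase Erk, was at 12.10 unstimulated, 11.47 naive with MDP, 8.82 naive with Pam3CSK4, 11.99 with MDP before MDP, 8.79 with MDP before Pam3CSK4, 10.66 with Pam3CSK4 before MDP and 10.89 with Pam3CSK4 before Pam3CSK4. Its differences were -2.09 and 1.33. Gcnt1, a glycosyltransferase of core 2 sugars, differed by -1.09 and 2.35, and the cannabinoid receptor gene Cnr2 by -2.11 and 1.55. Cxcr4, a chemokine receptor that holds cells in the marrow, was at 7.92 and 8.45 with Pam3CSK4 second and at 11.10 and 7.80 with MDP second. The difference between the contrasts was not tested, since each had 1 array per pretreatment.

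**Figure D5:**
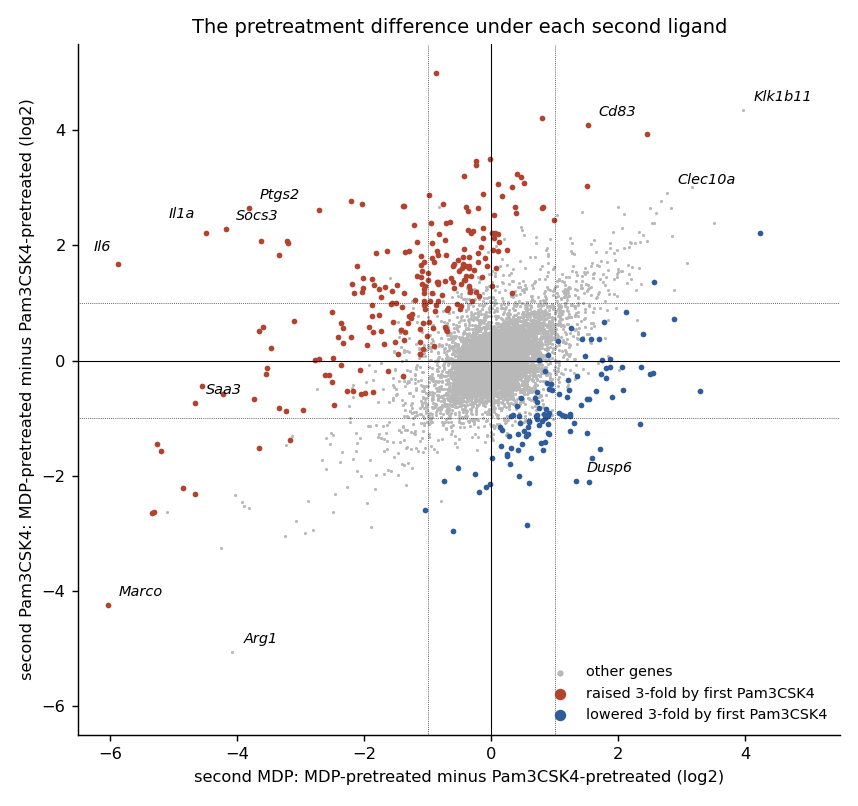
Log2 difference of each gene between MDP-pretreated and Pam3CSK4-pretreated cells with Pam3CSK4 second (vertical) and with MDP second (horizontal), from 4 separate arrays. Dotted lines mark 2-fold, and the 232 red genes raised 3-fold by a first Pam3CSK4 lie mostly in the upper left (medians 1.30 and -1.06), the 110 blue genes lowered 3-fold mostly in the lower right (-0.95 and 0.89).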

How the data were processed

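RNA from 7 cultures of mouse macrophages was hybridised to 1 Affymetrix array each. The deposited values are log2 expression per probe set, which the authors made with RMA in affy according to the submitters' processing notes. Tool versions and the arrays normalized together are not given in the sources used here. Scale is stated, no centring per gene was seen, and higher values mean more signal. Of 45101 probe sets 64 were controls, 34945 had 1 gene symbol in the platform table and 932 several. Of the 34945, 34741 matched the RefSeq gene table, with 0 symbols updated. A gene took its brightest probe set by the mean over the 7 arrays, which gave 18193 genes, 9010 of them with several probe sets.

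Differences of single arrays were computed in Python 3.11.15 with numpy 2.4.6, pandas 2.3.3 and scipy 1.17.1, and cyclic loess with limma 3.58.1 in R 4.3.3. Thresholds were 2-fold for the pretreatment difference and 3-fold, as in the study's design text, for the naive response. The code was tested on simulated data. The 28 gene lists hold 549 genes, of which 495 were measured, and the others are not analysed here. The members, lists, thresholds, motifs and the rule for bounds were chosen with earlier results of these data known.

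Named genes were the 15 highest and 15 lowest differences counted from the medians, up to 4 per list and side past 2-fold, the 5 highest and 5 lowest differences between the contrasts, and a fixed set of macrophage genes, 115 in all. Other genes named were chosen after their values were seen. Alternatives were other centring, cyclic loess, the mean of probe sets, omission of less specific ones, filters on dim genes, an added constant, and other thresholds. Replicate arrays, pretreatment without a second ligand and probe sets with several symbols are not analysed here.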

Additional observations from a re-analysis of the deposited data

Results flagged for a closer look

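The genes below were 2-fold higher after 1 pretreatment with Pam3CSK4 second and 2-fold higher after the other pretreatment with MDP second, counted from the array medians. Each value is the log2 difference with Pam3CSK4 second minus that with MDP second. It is a lower bound for Il6, Ptgs2 and Arg2, whose level with MDP before MDP was below the array median. Every contrast had 1 array per pretreatment, so the difference between contrasts was not tested. The 2 Pam3CSK4-pretreated arrays differed 2-fold in 1 gene, so the value is mostly the distance between the 2 MDP-pretreated arrays. The 46 such genes that stood higher after MDP pretreatment with Pam3CSK4 second include 18 of the named genes, and the 8 genes of the opposite kind include 3.

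Among cytokines the value was 6.71 for Il1a, at least 6.37 for Il6, 5.70 for Il1b, 3.75 for Tnf and 3.25 for Il10. Among chemokines and their receptors it was 5.33 for Cxcl1, 3.53 for Ccrl2 and 3.15 for Cxcl11. Signalling genes on this side were Socs3 with 6.46, Traf1 with 5.17, Cd40 with 4.76, Pim1 with 2.55 and Jak2 with 2.54. The stress gene Gadd45b had 2.92. Enzymes and a metabolite receptor followed, with at least 6.36 for Ptgs2, 4.06 for Hcar2, at least 2.73 for Arg2 and 2.28 for Nos2. In the opposite direction the value was -3.43 for Dusp6, -3.45 for Gcnt1 and -3.66 for Cnr2.

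The 18S ribosomal RNA control probe sets, which the comparisons do not use, stood 1.70 above the unstimulated array on the array of Pam3CSK4 before Pam3CSK4. On the other 5 stimulated arrays they were 0.28 to 0.48 above it.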

How the results depend on the processing

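No paired analysis was possible because every label carries the replicate number 2 and each group has 1 array. Leaving out a replicate was not possible for the same reason. Of 56 recomputed counts and correlations 48 stayed within 1.5 times the value reported or within 0.1 of r. The other 8 did not, all of them under another threshold. Centring the arrays cannot change r. At 1.5-fold 990 genes were higher after MDP and 755 after Pam3CSK4 pretreatment, and 16 Pam3CSK4-raised genes were higher after Pam3CSK4 pretreatment. At 3-fold these were 172, 65 and 5, and 91 raised genes were higher after MDP pretreatment. With raised genes taken at 2-fold over unstimulated, 20 of 413 were higher after Pam3CSK4 pretreatment. For named genes 881 of 891 recomputed differences kept their side of 2-fold and 0 changed sign. Those that crossed it were Mmp8, Tlr2, Cxcl11, Rrm2, Mt1 (under 2 settings), Dcn, Jdp2, Gng4 and Nos2. Under the filters on dim genes (115 and 106 of the 891) a gene keeps its value, so no crossing was possible. The mean of probe sets likewise leaves genes with 1 probe set unchanged. Without less specific probe sets Mt1 differed by 0.04. List medians moved by over 0.1 in 26 of 219 recomputations. The list median of cytokines reached 1.52 among members above the 75th percentile of the higher array. That filter keeps members by the brighter of the arrays compared, so it draws on the values compared. Signal near background limits genes below the array median, 6240 of which were below it on both arrays.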
